A study of Mus musculus with 12 samples.

Results

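The lysosomal module described here holds 31 genes of the 36047 in the data: 24 soluble hydrolases and cofactors, 6 membrane proteins and the transcription factor Tfeb. They are textbook components of the lysosome, and the rule that picks them uses gene names and no measured value. They were read in cortex RNAseq of WT mice and of Gde2KO mice, which lack GDE2 (gene Gdpd5) in all tissues and not in one cell type. GDE2 is a cell-surface glycerophosphodiester phosphodiesterase that releases proteins from their GPI anchors. Each genotype was sampled in 3 animals aged 4 months and in 3 other animals aged 19 months, and polyA RNA was sequenced from each cortex. No group received a further treatment.

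The lysosome is the acidic compartment in which cells break down proteins, glycans and lipids that arrive by endocytosis and autophagy. Its soluble enzymes are made in the endoplasmic reticulum and sorted to the lysosome, where heavily glycosylated membrane proteins shield the limiting membrane, and transporters and channels carry ions and breakdown products across it. Many of these genes share a promoter element, the CLEAR element, which contains an E-box and is bound by TFEB and its relatives. Loss of single members causes lysosomal storage diseases, many of which damage neurons, and in brain tissue several cathepsins are prominent in microglia.

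Between 46434259 and 59728495 reads were estimated per library at 4 months. At 19 months the estimates were 36915256 to 44604732 in 4 libraries and 6734475 in WT library A and 3707928 in Gde2KO library A (the 19-month libraries carry letters because their columns carry no replicate numbers). Gdpd5 was lower in the Gde2KO libraries at both ages without overlap, at 684, 702 and 1199 normalized counts in WT against 417, 585 and 403 in Gde2KO at 4 months, and at 1065, 1129 and 952 against 441, 456 and 560 at 19 months. Its log2 fold change was -0.85 ± 0.25 (SE; limma, Benjamini-Hochberg adjusted p = 0.463) and -1.11 ± 0.12 (adjusted p = 0.0111), so the targeted gene itself passed the test only at 19 months. Gde2KO library 3 of 4 months had the highest value of its age in 44.0% of all genes tested. Summed markers of hippocampus (8 genes) were 38667 and 34578 in WT libraries 1 and 2 of 4 months and 6893 to 11340 in the other 10, whereas striatal markers (8 genes) were 6343 and 5662 there and 29320 to 80974 in the other 4 libraries of 4 months. Summed Y-linked genes (4 genes) were 251 to 371 in all libraries of 4 months and in Gde2KO library A of 19 months and 4224 to 4797 in the other 5. The paper used male and female mice, and the library titles do not give sex. Age, this pattern, animal sex and library preparation therefore cannot be told apart. A difference in whole cortex also cannot tell fewer cells of a type from less RNA per cell.

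Promoter sequences are shown first because the shared E-box is what many of these genes have in common outside their function. Promoters of 27 of the 31 members matched the RefSeq promoters of build GRCm38.p6, and the 250 bases before each start were searched. The E-box CACGTG was found in 12 of the 27 (44.4%): Cln3, Ctsa, Ctsd, Ctsf, Ctsl, Gaa, Gla, Glb1, Lamp1, Lgmn, Mcoln1 and Naglu. Counted by gene in the same way, 6.86% of 27025 genes held it, as did 6.02% of all 32851 promoters. The longer core TCACGTGA, which contains the E-box and so is counted in both, was found in 5 members (18.5%), Cln3, Ctsa, Ctsd, Gla and Mcoln1, against 0.907% of genes and 0.785% of all promoters. Both motifs are palindromes and read alike on either strand. Lamp1 is shown for its run of 4 E-boxes between 61 and 15 bases before the start, and the other 5 for the longer core, with the motif in capitals.
Lamp1, chr8:13159073-13159160, plus strand: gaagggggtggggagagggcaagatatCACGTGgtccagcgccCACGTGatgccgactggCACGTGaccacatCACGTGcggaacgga
Gla, chrX:134601166-134601255, minus strand: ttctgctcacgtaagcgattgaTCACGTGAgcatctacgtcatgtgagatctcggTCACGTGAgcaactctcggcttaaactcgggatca
Mcoln1, chr8:3500462-3500491, plus strand: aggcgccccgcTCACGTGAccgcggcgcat
Cln3, chr7:126583340-126583369, minus strand: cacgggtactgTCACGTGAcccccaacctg
Ctsa, chr2:164833749-164833772, plus strand: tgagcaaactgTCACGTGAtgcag
Ctsd, chr7:142387908-142387937, minus strand: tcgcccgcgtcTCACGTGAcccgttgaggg
The core began 46 bases before the RefSeq start in Mcoln1, 122 in Cln3, 13 in Ctsa and 99 in Ctsd, and 228 and 195 bases before it in Gla. The windows of Mcoln1, Cln3, Ctsa and Ctsd overlap an annotated exon of the gene and are cut short. That of Mcoln1 lies after the annotated start of its main transcript Mcoln1-201, at chr8:3500457, and so not upstream of that transcript. For Lgmn the bases after the RefSeq start did not match the opening of an annotated transcript, so its E-box is counted without that check. A match is a description of the letters and not a measured binding site.

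All 31 members were above 0 in all 12 libraries and passed the filter on low values in every comparison. Levels between genes are given in TPM, which accounts for length, as the mean ± SD over the 12 libraries. They spanned 187-fold. Psap, whose product is cut into the saposins that help enzymes reach sphingolipids, was highest at 1158 ± 99.3 TPM, and Naglu, an N-acetylglucosaminidase that degrades heparan sulfate, was lowest at 6.19 ± 1.28. The order was shallow in its middle, since 18 of the 30 neighbouring pairs lay within 1 SD of each other.

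Among the cysteine proteases, the carboxypeptidase and endopeptidase Ctsb led at 341 ± 33.9 TPM. The endopeptidase Ctsl followed at 99.8 ± 18.2 TPM and the asparaginyl endopeptidase Lgmn, which trims other cathepsins into their mature forms, at 89.7 ± 12.96. Ctss, a cathepsin of microglia and other antigen-presenting cells, reached 77.3 ± 21.7 TPM, Ctsf 65.7 ± 5.56 and the carboxypeptidase Ctsz 55.3 ± 11.98. The aminopeptidase Ctsh (19.6 ± 4.38) and the dipeptidyl peptidase Ctsc (7.03 ± 1.66), which activates serine proteases of immune cells, were the low end of this class. Of the other proteases, the aspartic protease Ctsd stood at 253 ± 32.7 TPM, the serine carboxypeptidase Ctsa, which also protects Glb1 and Neu1 in a complex, at 80.0 ± 9.52, and the tripeptidyl peptidase Tpp1 at 48.5 ± 5.24.

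The glycosidases were led by Gaa, the acid alpha-glucosidase that degrades glycogen, at 166 ± 21.2 TPM. Hexa, the alpha subunit of the hexosaminidase that degrades GM2 ganglioside, stood at 44.8 ± 4.13 TPM, the sialidase Neu1 at 37.3 ± 4.14 and the alpha-mannosidase Man2b1 at 25.6 ± 3.18. The beta-glucuronidase Gusb (16.5 ± 2.83), the beta-galactosidase Glb1 (15.0 ± 1.42) and the alpha-galactosidase Gla (9.15 ± 1.15) were lower. Among the lipid-handling proteins, the palmitoyl-protein thioesterase Ppt1 stood at 82.8 ± 12.1 TPM, the acid ceramidase Asah1 at 35.7 ± 3.53, the sterol carrier Npc2 at 28.2 ± 4.35 and the acid lipase Lipa, which frees cholesterol and fatty acids, at 13.1 ± 1.77.

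Of the membrane proteins, Lamp1, a main glycoprotein of the lysosomal membrane, stood at 194 ± 36.5 TPM. The calcium-permeable channel Mcoln1 (TRPML1) reached 85.9 ± 14.2 TPM, Lamp2, which also takes part in autophagy, 57.5 ± 7.80, and Scarb2, which carries glucocerebrosidase to the lysosome, 45.8 ± 1.71. The sterol exporter Npc1 stood at 31.9 ± 3.15 TPM and Cln3, mutated in juvenile Batten disease, at 21.3 ± 3.81. Tfeb, the regulator, was at 9.63 ± 1.63 TPM. Scarb2 varied least between libraries, with a 1.14-fold range, and Naglu most, with a 2.51-fold range. The Naglu range ran from 3.26 TPM in Gde2KO library A of 19 months, the shallowest library, to 8.17 TPM in Gde2KO library 3 of 4 months.

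Differences between groups are given as log2 fold changes of gene-level normalized counts, which are estimated counts divided by a size factor. A gene was called at an adjusted p under 0.1 with a natural-log fold change above 0.5, equal to 0.72 on the log2 scale. At 4 months, 29 of the 31 members had a higher mean in Gde2KO, none of these differences passed the test, and part of the offset was shared by all genes. The median log2 fold change of the members was 0.24 beside 0.11 for all 19035 genes tested, of which 63.2% were positive, and 23 of 31 members lay above the all-gene median. limma called 0 members, beside 0.105% of all genes called higher and 0.021% called lower, and 1 member, Lgmn, had an unadjusted p under 0.05, beside 1509 higher and 516 lower of all genes. Rescaling by median ratios moved the all-gene median from 0.11 to -0.0032. Relative to the all-gene median the members stood 0.14 higher at the deposited scaling, and after the rescaling their own median was 0.13, with 23 of 31 positive.

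**Figure D1:**
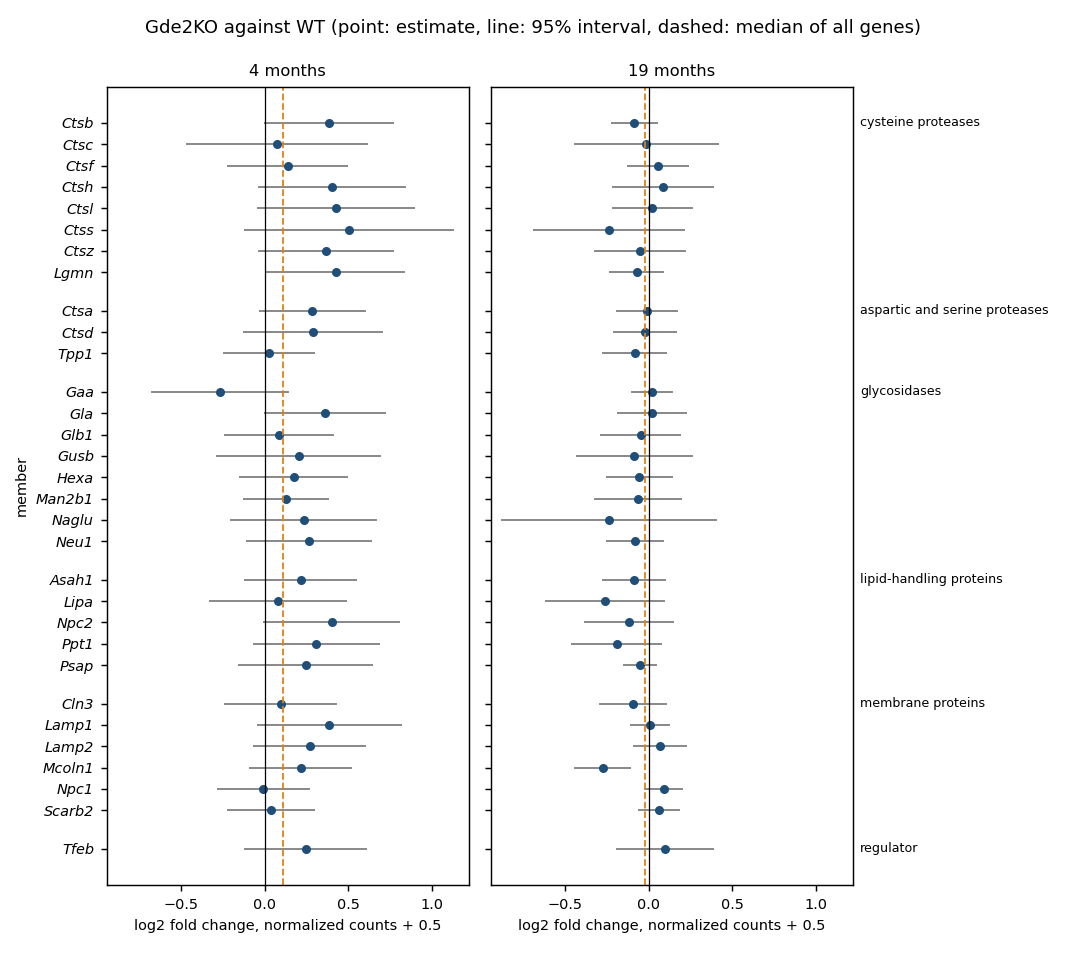
Log2 fold change of Gde2KO against WT (x axis) for the 31 members, grouped by role (y axis), at 4 months and at 19 months; points are limma estimates, lines their 95% intervals and dashed lines the all-gene medians of 0.11 and -0.02. At 4 months 30 of 31 intervals include 0 while 29 points lie above it, and at 19 months the points gather near 0.

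The 3 members of smallest p at 4 months were Lgmn, Ctsb and Gla. Lgmn was at 2248, 2171 and 2603 normalized counts in WT and 3062, 2533 and 3965 in Gde2KO. The lowest Gde2KO library lay below the highest WT library, so the groups overlapped, and the log2 fold change was 0.43 ± 0.18 (SE; limma, adjusted p = 0.463). Ctsb was at 14969, 14767 and 18494 in WT and 20579, 17943 and 24520 in Gde2KO. Here too WT library 3 exceeded Gde2KO library 2, and the log2 fold change was 0.38 ± 0.17. Gla was at 500, 440 and 487 in WT and 575, 540 and 730 in Gde2KO, with no overlap and a log2 fold change of 0.36 ± 0.16. In all 3 genes Gde2KO library 3 was the highest of the 6, and without it their log2 fold changes were 0.26, 0.27 and 0.23.

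By role, the cysteine proteases had the highest median, 0.39, with 8 of 8 positive, from 0.07 for Ctsc to 0.50 for Ctss. Without Gde2KO library 3 the medians were 0.20 for the cysteine proteases, 0.11 for the other proteases, 0.06 for the glycosidases, 0.14 for the lipid-handling proteins and 0.09 for the membrane proteins, and Tfeb was at 0.22. Ctss was at 1277, 1054 and 1375 normalized counts in WT and 1335, 1437 and 2750 in Gde2KO, so its mean difference rested on library 3. Ctsl (0.43), Ctsh (0.40) and Ctsz (0.37) lay close to Lgmn, and Ctsf at 0.14. Ctsd (0.29) and Ctsa (0.28) stood above Tpp1 (0.03). Of the glycosidases 7 of 8 were positive with a median of 0.19, namely Gla, Neu1 (0.27), Naglu (0.23), Gusb (0.20), Hexa (0.17), Man2b1 (0.12) and Glb1 (0.09). Gaa was the lowest member at -0.27, from 10130 ± 950 in WT to 8522 ± 1865 normalized counts in Gde2KO (SD, n = 3 each).

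The lipid-handling proteins had a median of 0.25, with Npc2 at 0.40, Ppt1 at 0.31, Psap at 0.25, Asah1 at 0.22 and Lipa at 0.08. The membrane proteins had a median of 0.15, with Lamp1 at 0.39, Lamp2 at 0.27, Mcoln1 at 0.21, Cln3 at 0.09, Scarb2 at 0.04 and Npc1 at -0.0091. Their fold changes therefore spread from about none to that of the leading proteases. Tfeb was at 214, 227 and 264 normalized counts in WT and 293, 254 and 286 in Gde2KO, which overlapped. Its log2 fold change of 0.24 (adjusted p = 0.518) turned to -0.02 when computed from TPM, whose library totals run from 887748 to 1472300.

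At 4 months WT and Gde2KO libraries were fully separated in 7 members, all higher in Gde2KO: Ctsh, Ctsl, Gla, Man2b1, Npc2, Ppt1 and Lamp2. This compares with 11.1% of all genes not overlapping and higher and 4.26% not overlapping and lower, so 0 members were in the second class. Lamp2 was at 2516, 2417 and 2453 in WT and 2798, 2602 and 3585 in Gde2KO. Of the 31 intervals, 9 reached the fold limit of the call, so fold changes of that size were not excluded in those members.

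Gde2KO library 3 was the highest of the 6 libraries in 26 of 31 members, and WT library 2 the lowest in 14. The summed members were at 124560, 122042 and 130484 normalized counts in WT and 150861, 124206 and 173805 in Gde2KO. Gde2KO library 2 thus lay within the WT range, and the other Gde2KO libraries above it. Without library 3, 26 of 31 members were positive, with a median of 0.12 beside 0.04 for all genes. Summed microglia markers (15 genes, none at 0 in any library) were likewise lowest in WT library 2 and highest in Gde2KO library 3, at 9068, 8243 and 10763 in WT and 11101, 10193 and 15714 in Gde2KO. Activated microglia markers (11 genes, 2 of them at 0 in some library) ran from 48325 to 51347 in WT and from 49411 to 73992 in Gde2KO. Such a sum follows its most abundant genes and need not follow the others. The median log2 fold change of these 11 genes was 0.28, with 0 called. The part of these markers, and of the hippocampal and striatal markers that set WT libraries 1 and 2 apart, in the members' values was not tested.

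**Figure D2:**
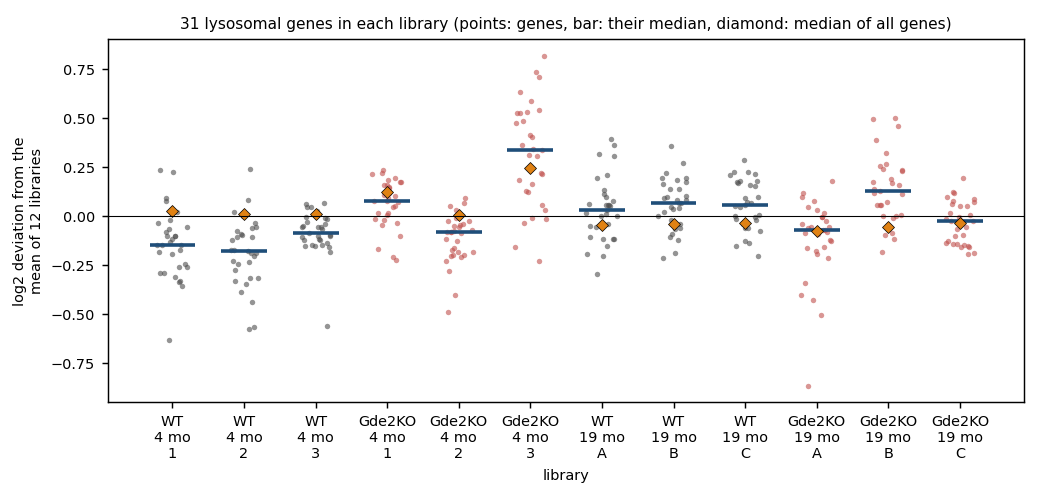
Deviation of each member from its mean over the 12 libraries (y axis, log2 units), by library (x axis); points are genes, the bar is the members' median and the diamond the median of all genes. Gde2KO library 3 of 4 months stands highest, with a member median of 0.34 beside 0.24 for all genes, and the 3 WT libraries of 4 months lie lowest, at -0.18 to -0.08.

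At 19 months the members differed little between genotypes. Their median log2 fold change was -0.06 beside -0.02 for all 18583 genes tested, with 10 members positive and 21 negative. limma called 0 members, beside 0.0323% of all genes called higher and 0.0646% called lower, and 1 member, Mcoln1, had an unadjusted p under 0.05, beside 606 higher and 679 lower of all genes. Only the interval of Naglu (log2 fold change -0.24) reached the fold limit, so a difference of that size lay outside the other 30 intervals. The lowest Naglu value, 141 normalized counts, came from Gde2KO library A, the shallowest.

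Mcoln1 was at 2762, 2536 and 2702 normalized counts in WT and 2076, 2416 and 2117 in Gde2KO. Every WT library lay above every Gde2KO library. The log2 fold change was -0.28 ± 0.07 (SE; 95% interval -0.45 to -0.11; limma, unadjusted p = 0.00497, adjusted p = 0.567), and over the alternatives the adjusted p ran from 0.213 to 0.9999. Cln3 was the other member not overlapping and lower, at 442 ± 9.54 in WT and 414 ± 7.38 in Gde2KO (SD, n = 3). In all genes 8.32% were not overlapping and lower and 5.85% not overlapping and higher.

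Npc1 was the single member in the second class. It was at 2603, 2658 and 2675 in WT and 2828, 2748 and 2861 in Gde2KO, a log2 fold change of 0.09 ± 0.05 (adjusted p = 0.734) that turned to -0.02 when computed from TPM. Lipa was at 717, 756 and 663 in WT and 473, 749 and 588 in Gde2KO. Its lowest value came from the shallowest library, its groups overlapped, and its log2 fold change was -0.26 ± 0.16. Tfeb was at 238, 235 and 273 in WT and 249, 292 and 257 in Gde2KO, at 0.10 on the log2 scale and at -0.08 when computed from TPM.

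Gde2KO library A, the shallowest, was the lowest of the 6 libraries in 17 of 31 members, beside 33.5% of all genes. It was also the only library of 19 months with low Y-linked genes (371 against 4224 to 4797), so depth and that pattern cannot be told apart in it. Gde2KO library B was the highest in 14, beside 10.7% of all genes. The 2 libraries stood on either side of WT, with summed members at 138856, 141555 and 142641 in WT and 130585, 145284 and 133764 in Gde2KO. The direction of the list followed them, since 16 of 31 members were positive without both low-depth libraries and 18 of 31 without Gde2KO library A alone. Microglia markers were at 10099, 10999 and 10673 in WT and 8713, 12848 and 9965 in Gde2KO, in the same order as the members within Gde2KO. Striatal markers were at 9336, 10605 and 8241 in WT and 16668, 9752 and 21615 in Gde2KO. Gde2KO libraries A and C, where Mcoln1 was lowest, thus had the most striatal markers of this age. The genotype median was 0.80 for striatal markers (0 of 8 called) and 0.41 for hippocampal markers (1 of 8 called higher). The part of these markers in the members' values was not tested.

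**Figure D3:**
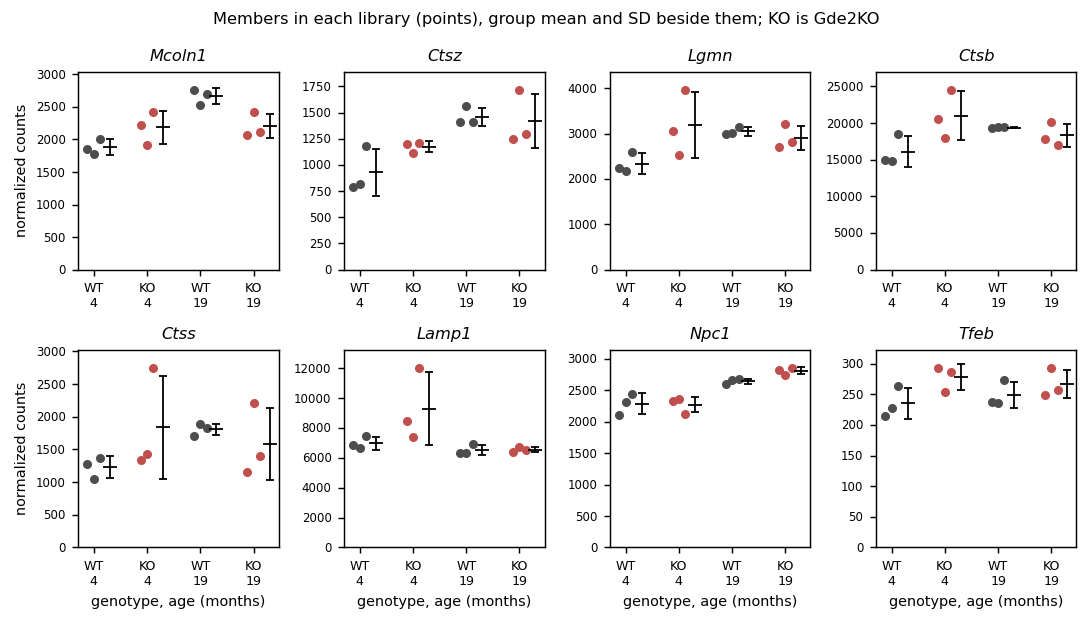
Normalized counts (y axis) of Mcoln1, Ctsz, Lgmn, Ctsb, Ctss, Lamp1, Npc1 and Tfeb in the 4 groups (x axis), with 1 point per library and the mean ± SD (n = 3). The Mcoln1 libraries of WT at 19 months, 2536 to 2762, lie above all other Mcoln1 libraries, and the Npc1 libraries of 19 months, 2603 to 2861, lie above all those of 4 months.

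The interaction asks whether the genotype difference changed between ages, in 1 fit of all 12 libraries. It was negative in 28 of 31 members, which places Gde2KO relatively lower at 19 months, with a median of -0.30 beside -0.15 for all 18731 genes, and 23 members lay below the all-gene median. limma called 0 members, beside 0.0107% of all genes called higher and 0.0374% called lower, and 5 members, all negative, had an unadjusted p under 0.05, beside 653 positive and 1755 negative of all 18731 genes. Without Gde2KO library 3 of 4 months, 26 of 31 members were negative, and the medians were -0.18 for the members and -0.08 for all genes. After median-ratio rescaling, 25 of 31 were negative with a median of -0.18 beside -0.03 for all genes.

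The 5 members were Mcoln1 (-0.49 ± 0.15 SE, unadjusted p = 0.00587, adjusted p = 0.368 by limma with Benjamini-Hochberg adjustment), Ctsb (-0.47), Lgmn (-0.50), Ppt1 (-0.50) and Npc2 (-0.52). They are a channel, a pair of cysteine proteases, a thioesterase and a sterol carrier, of different roles. In each of them the Gde2KO mean was above the WT mean at 4 months and below it at 19 months, as in Ctsb, at 16076 ± 2096 in WT against 21014 ± 3310 in Gde2KO and then at 19387 ± 52.0 against 18304 ± 1593 (SD, n = 3). Ctss had the most negative estimate, -0.74, with a wide interval of -1.56 to 0.08. Gaa (0.29), Npc1 (0.10) and Scarb2 (0.03) were the 3 positive members. Without WT library 3 of 4 months, which had more striatal and fewer hippocampal markers than the other WT libraries of that age, 3 members passed, among them Mcoln1 (adjusted p = 0.0529) and Ctsb (adjusted p = 0.0572), while calls among all genes went from 9 to 2029.

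The ages were compared within each genotype in the same fit, so these comparisons share their libraries with the interaction. Summed Y-linked genes were at 300 to 323 in WT at 4 months and 4224 to 4556 in WT at 19 months, and the part of this pattern was not tested. In WT the members stood higher at 19 months, against the direction of most genes. Their median log2 fold change was 0.17 beside -0.07 for all genes, 25 of 31 were positive beside 43.7% of all genes, and 28 of 31 lay above the all-gene median. No member passed the fold limit of the call, so limma called 0 members, beside 6.29% of all genes called higher and 7.4% called lower. By adjusted p under 0.1 alone 7 members were higher and 0 lower, beside 13.1% and 15.1% of all genes, and 9 members, all higher, had an unadjusted p under 0.05, beside 2933 higher and 3524 lower of all 18731 genes.

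The 7 were Mcoln1, Ctsz, Ctsa, Cln3, Man2b1, Lgmn and Npc1, which are 3 proteases, a glycosidase and 3 membrane proteins. Mcoln1 went from 1848, 1779 and 2013 normalized counts at 4 months to 2762, 2536 and 2702 at 19 months, without overlap (log2 fold change 0.51 ± 0.10 SE, adjusted p = 0.00836 by limma with Benjamini-Hochberg adjustment). Ctsz went from 786, 816 and 1184 to 1407, 1561 and 1412 (0.68 ± 0.16, adjusted p = 0.0149). WT library 3 of 4 months stood nearest to the older libraries, and without it Ctsz also passed the fold limit, at 0.86. Ctsa went from 1804, 1857 and 2074 to 2396, 2548 and 2703 (0.42 ± 0.11, adjusted p = 0.0253). Over the alternatives the adjusted p ran from 3.39e-05 to 0.0453 for Mcoln1, from 4.27e-05 to 0.0729 for Ctsz and from 7.32e-05 to 0.0949 for Ctsa, so these 3 stayed under 0.1 in each.

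Cln3 (0.38, adjusted p = 0.0315), Man2b1 (0.32, adjusted p = 0.0647), Lgmn (0.39, adjusted p = 0.0788) and Npc1 (0.21, adjusted p = 0.0946) each had an alternative in which their adjusted p exceeded 0.1 (limma, Benjamini-Hochberg), up to 0.123, 0.191, 0.230 and 0.321. Lgmn went from 2248, 2171 and 2603 to 2989, 3005 and 3151. The highest library of 4 months was again WT library 3. Without WT libraries 1 or 2 of 4 months, those with high hippocampal markers, 26 of 31 members were positive in either case, and 3 passed the adjusted p.

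Libraries of the ages did not overlap in WT in 16 members that were higher and 2 that were lower, beside 19.3% and 26.7% of all genes. The higher members were Ctsb, Ctsl, Ctss, Ctsz, Lgmn, Ctsa, Ctsd, Tpp1, Glb1, Gusb, Man2b1, Neu1, Psap, Cln3, Mcoln1 and Npc1, which take in each role but Tfeb. The lower were Gaa, from 10130 ± 950 to 8889 ± 136, and Lamp2, from 2462 ± 50.2 to 2223 ± 132 (SD, n = 3). All 8 cysteine proteases had a positive estimate, from 0.06 for Ctsh to 0.68 for Ctsz, as had all 5 lipid-handling proteins. The summed members went from 125695 ± 4334 to 141017 ± 1949 normalized counts, a description with no test. Microglia markers, at 8243 to 10763 and 10099 to 10999, had a median log2 fold change of 0.17 in this comparison. The median was 0.61 for activated microglia markers (5 of 11 called higher, 1 lower), 0.65 for border macrophage markers (2 of 7 called higher), 1.59 for blood markers (4 of 5 called higher), -0.53 for oligodendrocyte markers (3 of 10 called lower) and -2.09 for hippocampal markers (6 of 8 called lower). The part of these markers in the members' values was not tested.

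**Figure D4:**
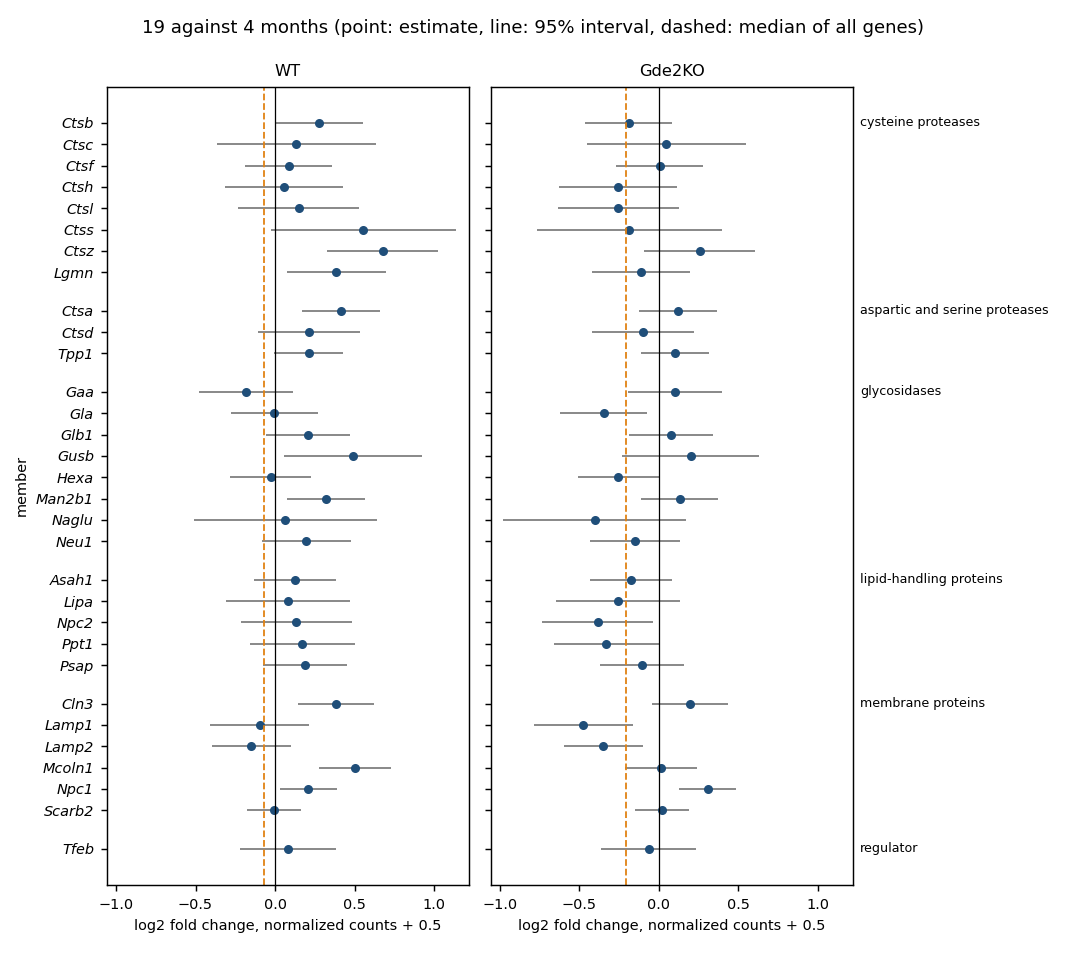
Log2 fold change of 19 against 4 months (x axis) for the 31 members, grouped by role (y axis), in WT and in Gde2KO; points are limma estimates, lines their 95% intervals and dashed lines the all-gene medians of -0.07 and -0.21. In WT 28 members lie to the right of the all-gene median, and in Gde2KO 21 do.

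In Gde2KO the members were mixed, with 13 positive and 18 negative, and their median of -0.11 beside -0.21 for all genes turned to 0.06 beside -0.05 after median-ratio rescaling and to 0.04 beside -0.14 without library 3 of 4 months. Without library 2 of 4 months it was -0.25, with 7 positive. limma called 0 members, beside 2.55% of all genes called higher and 9.32% called lower, and 6 members, 1 higher and 5 lower, had an unadjusted p under 0.05, beside 1645 higher and 5387 lower of all 18731 genes. By adjusted p alone Npc1 was higher and Lamp1, Lamp2 and Gla lower, 1 and 3 members beside 7.45% and 24.9% of all genes. Microglia markers had a median of -0.26 (2 of 15 called lower), oligodendrocyte markers of -0.57 (4 of 10 called lower) and striatal markers of -1.80 (1 of 8 called lower) in this comparison, and their part was not tested. The count of 4 members was 13 without library 2 of 4 months, 2 without library 3, 8 after median-ratio rescaling and 14 under array weights. The shares of all genes by adjusted p alone were not computed in those settings. All genes that also passed the fold limit numbered 2224 in the main fit and, in the same order of settings, 2851, 1096, 1662 and 2929.

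Npc1 went from 2325, 2367 and 2132 to 2828, 2748 and 2861 normalized counts (log2 fold change 0.31 ± 0.08 SE, adjusted p = 0.025 by limma with Benjamini-Hochberg adjustment). All older libraries stood above all younger ones, as they did in WT, and the adjusted p was 0.0484 without Gde2KO library 3 and 0.201 when computed from TPM. Lamp1 went from 8483, 7384 and 12031 to 6386, 6744 and 6514 (-0.48 ± 0.14, adjusted p = 0.0365), and Lamp2 from 2798, 2602 and 3585 to 2472, 2340 and 2171 (-0.35 ± 0.11, adjusted p = 0.0465). Gla went from 575, 540 and 730 to 512, 467 and 461 (-0.35 ± 0.13, adjusted p = 0.0666). In each of the 3 the highest value was that of library 3 of 4 months, and without it the log2 fold changes were -0.27, -0.22 and -0.22, with adjusted p = 0.0628, 0.113 and 0.188 by limma.

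The proteases and the channel that led in WT had other values in Gde2KO. Mcoln1 went from 2221, 1920 and 2423 to 2076, 2416 and 2117, a log2 fold change of 0.01. Ctsz went from 1203, 1114 and 1211 to 1244, 1717 and 1295 (0.26), and Ctsa from 2342, 2036 and 2628 to 2310, 2783 and 2509 (0.12). The differences between genotypes in these changes are the interaction values, -0.49 for Mcoln1, -0.42 for Ctsz and -0.29 for Ctsa, none of which passed. Libraries did not overlap in Gde2KO in Ctsz, Cln3 and Npc1, which were higher, and in Gla, Ppt1, Lamp1 and Lamp2, which were lower, beside 11.3% and 29.9% of all genes. Lamp1 also had a negative estimate in WT, -0.10, from 6827, 6631 and 7455 to 6308, 6335 and 6921. Lamp2 (-0.15 in WT, from 2516, 2417 and 2453 to 2157, 2137 and 2375) and Gla (-0.0060 in WT, from 500, 440 and 487 to 455, 483 and 480) are X-linked. Tfeb was at 0.08 in WT and -0.06 in Gde2KO, and turned to -0.26 when computed from TPM in WT and to 0.10 after rescaling in Gde2KO.

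The fold changes were also read by promoter motif. At 4 months the 12 members with an E-box in the searched promoter had a median log2 fold change of 0.26 and the 15 without it 0.24, and the 5 with the longer core 0.28. At 19 months the medians were -0.02, -0.07 and -0.02. With age in WT they were 0.18, 0.17 and 0.38, and with age in Gde2KO -0.05, -0.11 and 0.01. Of the printed promoters, that of Lamp1 with its 4 E-boxes belonged to a gene with a negative estimate with age in both genotypes, and those of Mcoln1, Ctsa and Cln3 to genes among the 7 above. Those of Ctsd (0.21, adjusted p = 0.329 by limma) and Gla (-0.0060) belonged to genes outside the 7. These are descriptions with no test.

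Transcript usage could be tested in 26 members at 4 months and in 27 in the other comparisons. The test, limma diffSplice, compares the log fold change of each transcript with that of the other transcripts of its gene. The shares printed here are those of each transcript in its gene's TPM. They were not themselves tested, and entered a call only through a limit on the difference in share. Mcoln1 was called at 4 months, beside 0.997% of all genes tested (limma diffSplice, adjusted p = 0.0501, largest difference in share 13.5 points). The difference lay in Mcoln1-204 (ENSMUST00000160338.1), a short model of 363 bases in 3 exons at chr8:3500504-3506941 on the plus strand, whose coding sequence is annotated as incomplete at its end. It held 13.4%, 18.4% and 15.9% of Mcoln1 in WT and 3.84%, 3.20% and 0% in Gde2KO. The main transcript Mcoln1-201 (ENSMUST00000004683.12), 2065 bases in 14 exons at chr8:3500457-3515232, held 53.1%, 48.2% and 49.3% in WT and 63.5%, 59.1% and 64.3% in Gde2KO.

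The groups did not overlap in either transcript. Mcoln1-204 rested on few reads, however, estimated at 40.5, 63.4 and 63.8 in WT and 13.7, 8.80 and 0 in Gde2KO, and 330 of its 363 bases are also in Mcoln1-201. At 19 months its share was 4.99%, 13.3% and 12.7% in WT and 22.0%, 13.9% and 0.875% in Gde2KO, so the spread within Gde2KO covered all WT libraries. Those shares rested on an estimated 3.24, 46.1 and 57.0 reads in WT and 6.89, 59.1 and 2.38 in Gde2KO. The 22.0% came from Gde2KO library A, the shallowest, with an estimated 180 reads of Mcoln1-201. The 0.875% came from Gde2KO library C, with an estimated 2024 reads of Mcoln1-201, so shallow sequencing affected the first extreme and not the second. Mcoln1-201 held 49.3%, 48.3% and 46.95% in WT and 48.2%, 46.5% and 61.8% in Gde2KO at that age. The retained-intron transcript Mcoln1-205 held 11.7% and 13.6% on average in WT and Gde2KO at 4 months and 17.6% and 11.9% at 19 months. ENSMUST00000159808.1 held 9.66% to 12.1% and ENSMUST00000161842.1 4.42% to 7.39% of Mcoln1 in the group means. The adjusted p of Mcoln1 at 4 months ran from 0.00333 to 0.521 over the 13 settings run and passed in 10, and it was 0.355, 0.521 and 0.217 without WT library 1, 2 or 3.

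**Figure D5:**
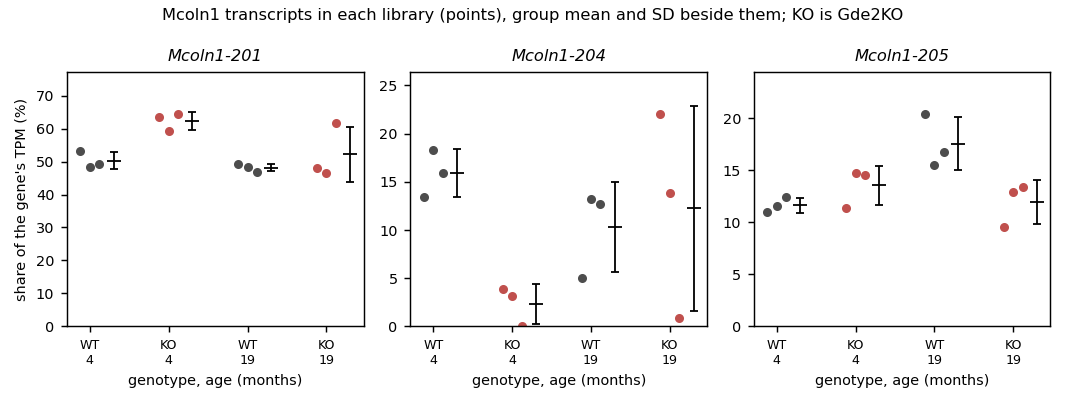
Share of Mcoln1 TPM (y axis, percent) held by Mcoln1-201, Mcoln1-204 and Mcoln1-205 in the 4 groups (x axis), with 1 point per library and the mean ± SD (n = 3). Mcoln1-204 lies at 13.4% to 18.4% in WT and 0% to 3.84% in Gde2KO at 4 months, and at 0.875% to 22.0% in Gde2KO at 19 months.

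Tfeb (adjusted p = 0.0359, 7.21 points) and Ctsf (adjusted p = 0.0419, 8.11 points) passed the adjusted p of limma diffSplice at 4 months but not the share limit of 10 points. Ctsf-201 went from 57.3% ± 4.15 in WT to 65.4% ± 2.90 in Gde2KO (SD, n = 3). At 19 months 0 members were called by limma diffSplice, beside 0.171% of all genes, and with age, over both genotypes, 0 members beside 3.88%. Lamp2 has 3 coding transcripts that differ at their 3′ end. Lamp2-203 held 43.7%, 42.5%, 43.5% and 41.1% in WT and Gde2KO at 4 months and WT and Gde2KO at 19 months, Lamp2-202 held 30.0%, 29.4%, 27.7% and 31.5%, and Lamp2-201 held 24.2%, 26.4%, 27.3% and 25.7%. The order of these means was the same in all 4 groups. In single libraries Lamp2-201 exceeded Lamp2-202 in WT library 1 of 4 months and in WT library A and Gde2KO library B of 19 months. limma diffSplice, which tests usage between groups and not this order, gave Lamp2 an adjusted p = 0.698, 0.979 and 0.912 at 4 months, at 19 months and with age. Psap-205 held 76.9%, 78.7%, 71.7% and 75.1% and Psap-202 17.6%, 16.5%, 22.5% and 20.1% in the same order of groups.

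Other genes of the lysosome were read from lists beside the members. At 4 months the median log2 fold change was 0.12 for 32 other lysosomal enzymes, 0.11 for 27 other membrane and sorting proteins, 0.26 for 18 subunits of the V-ATPase, the proton pump that acidifies the lysosome, 0.20 for 19 regulators of lysosome biogenesis and 0.18 for 27 autophagy genes. limma called 0 genes in each list, and the members' median of 0.24 was close to that of the V-ATPase. Without Gde2KO library 3 these medians were 0.07, -0.03, 0.09, 0.07 and 0.09, again with 0 calls. At 19 months they were -0.0049, -0.06, -0.06, -0.03 and -0.02 with 0 calls, and 16 of 18 V-ATPase subunits were negative. The interaction medians were -0.12, -0.16, -0.37, -0.22 and -0.22, and without Gde2KO library 3 of 4 months -0.05, -0.04, -0.16, -0.06 and -0.13, with 0 calls either way.

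With age in WT the medians were 0.06, 0.07, -0.08, -0.04 and 0.03, all below the 0.17 of the members. Called higher were the carboxypeptidase Scpep1 (0.78, adjusted p = 0.000896), the macrophage glycoprotein Cd68 (0.82, adjusted p = 0.0442), the LAMP family member Lamp5 of neurons (2.25, adjusted p = 0.015) and the TFEB relative Tfec (2.20, adjusted p = 0.0876), by limma with Benjamini-Hochberg adjustment. The sialidase Neu4 (-1.04, adjusted p = 0.00195) and the gamma-glutamyl hydrolase Ggh (-0.81, adjusted p = 0.0237) were called lower. Hippocampal markers were high in the same comparison in WT libraries 1 and 2 of 4 months, as given above, and their part in these calls was not tested.

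With age in Gde2KO the medians were -0.12, -0.05, -0.45, -0.26 and -0.19, and without library 3 of 4 months -0.01, -0.02, -0.29, -0.10 and -0.13. Called lower by limma were the protease Ctsk (-0.90, adjusted p = 0.04) and Ggh (-1.11, adjusted p = 0.00842), the V-ATPase subunits Atp6v1h (-0.79, adjusted p = 0.0114), Atp6v1f (-0.74, adjusted p = 0.0255) and Atp6v1g1 (-0.74, adjusted p = 0.0289), and the autophagy genes Gabarapl2 (-0.88, adjusted p = 0.00781) and Atg5 (-0.84, adjusted p = 0.0118). Summed V-ATPase subunits ran from 142699 to 226962 in Gde2KO at 4 months, with the top value in library 3, and from 138591 to 142495 at 19 months. Without that library 0 V-ATPase and 0 autophagy genes were called in this comparison, Ggh was, and Cd68 was called higher, while calls higher and lower among all genes were 362 and 734.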

How the data were processed

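Signal values per transcript were deposited by the authors, made with Kallisto (GRCm38) and divided by Sleuth size factors; they are called normalized counts here, and a further table holds TPM scaled likewise. The submitters' notes also name bcl2fastq 2.17, Trimmomatic 0.36 and STAR 2.5.2b. These values are not raw counts, so no count model was used. Transcripts were summed to genes by the deposited names. limma 3.58.1 in R 4.3.3 was fitted, with an intensity trend, to log2(value + 0.5) for all genes with 5 or more in at least 47% of libraries, with Benjamini-Hochberg adjustment. Genotypes were fitted within an age, and the interaction (called on adjusted p alone) and ages in all 12 libraries. Fold changes of low genes are understated by the pseudocount. Transcript usage used diffSplice on transcripts with a mean of 5 or more. Scripts were tested on simulated data.

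The members were set by gene name, but they, the lists and the tests were chosen with earlier results of these data known. Values per library are given for called members, the 3 of smallest p in each comparison, Tfeb and Gdpd5. Of the other lists, at most 4 called genes per list and comparison are named, with fold changes only. Ctss, and the other lists without Gde2KO library 3 of 4 months, were added after seeing the data. The p-values weigh a group difference against the spread between libraries of different animals. That spread also holds differences in depth and in regional markers between the libraries. Strand use of the kit is not given in the sources used here, so reads from exons shared with a gene on the opposite strand, as in Ctsl (1742 bases), Ctsb (774), Npc1 (511), Ctsa (495), Cln3 (442), Hexa (255), Lamp1 (249), Ppt1 (129) and Ctsz (10), cannot be told apart, and Ctsd (808) and Glb1 (165) share exon bases with a gene on their own strand. Alternatives changed the pseudocount, filter, scaling, trend, library weights and replicates. Python 3.11.15 made tables and figures.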

Additional observations from a re-analysis of the deposited data

How the results depend on the processing

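Of 142 alternative values of the 8 counts of called members, 130 stayed the same and 12 moved. Of 510 alternative values of named fold changes, 491 kept direction and stayed uncalled, 14 became called and 5 reversed. No member was called at gene level in the main fits, so a lost call was not possible in this count. An adjusted p that rose above 0.1 in a gene named by adjusted p alone was not counted as a change. The interaction called 13 members under array weights, beside 6460 of all 18731 genes. It called from 0 to 3 when libraries were left out, the 3 without WT library 3 of 4 months, beside 2029 genes. Age in WT called 2 members under array weights, beside 4125 of all 18731 genes. At an adjusted p under 0.05 with no fold limit it called 4 members, beside 3426 of all genes. With libraries left out it called from 0 to 1 (Ctsz without WT library 3 of 4 months). Age in Gde2KO called 3 members at an adjusted p under 0.05 with no fold limit, beside 3982 of all genes. Altered usage at 4 months was called in 3 members with no share limit and in 0 to 2 with libraries left out: 0 without WT library 1, Ctsf in place of Mcoln1 without WT library 2, Ctsc without WT library 3, and Mcoln1 with Npc1 without Gde2KO library 2. Usage at 19 months called 1 member by Simes adjustment (Man2b1), and usage with age 1 (Ctsc) with transcripts of a mean of 20 or more and 1 (Lamp1) with no share limit. Tfeb reversed to 0.10 with age in Gde2KO after median-ratio rescaling, and from TPM to -0.26 with age in WT, -0.079 at 19 months and -0.016 at 4 months. Npc1 reversed to -0.020 at 19 months from TPM. The causes were not tested.

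Array weights changed the number of all genes called from 24 to 2420 at 4 months, 18 to 57 at 19 months, 9 to 6460 for the interaction and 2565 to 4125 with age in WT. At 4 months, 19 members then had an adjusted p under 0.1 and none passed the fold limit. The 2420 genes passed both limits, and the share of all genes by adjusted p alone was not computed under array weights, so the 19 has no like background. Leaving out libraries gave 5 to 1510 genes at 4 months, 9 to 45 at 19 months, 6 to 2029 for the interaction, 1525 to 3096 with age in WT and 1096 to 2851 with age in Gde2KO. For usage at 4 months it gave 83 to 659 genes beside 122. Simes adjustment gave 262 and no share limit 324. For usage at 19 months Simes adjustment gave 47 beside 21, no share limit 40, leaving out libraries 22 to 59 and leaving out both low-depth libraries 122. For usage with age a pseudocount of 5 gave 787 beside 478, no share limit 1365, leaving out libraries 284 to 691 and leaving out both low-depth libraries 816. An adjusted p under 0.05 with no fold limit gave 12 genes at 4 months and 3982 with age in Gde2KO (main 2224), and no filter or no intensity trend gave 12 each at 4 months. No intensity trend gave 7 genes at 19 months, TPM 12 and leaving out both low-depth libraries 34. For the interaction TPM gave 6, and a mean of 50 or more gave 1692 with age in WT. Libraries of 4 months with the same replicate number did not deviate together (correlations 0.060, 0.0071 and -0.048). With the replicate block 0 members and 21 genes were called at 4 months, and for usage 1 member and 97 genes, with an adjusted p of 0.082 for Mcoln1. No paired analysis was possible at 19 months because the columns carry no numbers. With 3 animals a group and a median SE of 0.16 at 4 months, changes below the fold limit are poorly resolved, and in Gde2KO library A of 19 months 1 read is worth 8.29 normalized counts.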
